A study of Homo sapiens with 16 samples.

Results

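The genes described here are 10 genes of iron uptake, storage, export and control, chosen by name: TFRC, STEAP3, SLC11A2, FTH1, FTL, NCOA4, SLC40A1, IREB2, ACO1 and HMOX1. All 10 were among the 35606 genes of the expression table. Their RNA was measured in 16 bulk RNA-seq libraries from 4 human cancer cell lines treated with AU-15330 or with its solvent, DMSO, with 2 libraries per line and arm. A pair of the lines, NCI-H526 and NCI-H1048, came from small cell lung cancer of POU2F3 type (SCLC-P), and the other pair, NCI-H929 and MM1.S, from multiple myeloma. AU-15330 is a PROTAC that degrades SMARCA2 and SMARCA4, the ATPases of the mSWI/SNF chromatin remodelling complex, and PBRM1, and it was given at 1 uM. The sample titles give 24 h of treatment, the treatment protocol 12 to 24 h and the series design 4 to 12 h, so the duration behind the values is uncertain. Each line stands for 1 tumour, NCI-H929 was grown with 2-mercaptoethanol, and the RNA of MM1.S was depleted of ribosomal RNA while that of the other 3 lines was selected by poly(A). The question each comparison addressed was whether the RNA of these genes changed when the ATPases were removed, and whether the change differed between the lines.

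Cells take up iron mainly as transferrin, through the transferrin receptor TFRC. Inside the endosome the ferrireductase STEAP3 reduces the iron and the transporter SLC11A2 (DMT1) carries it to the cytosol. Iron that is not used is stored in ferritin, a shell of heavy (FTH1) and light (FTL) chains, which NCOA4 delivers to the lysosome for degradation, or it leaves the cell through ferroportin (SLC40A1). The iron regulatory proteins ACO1 (IRP1) and IREB2 (IRP2) bind RNA hairpins called iron-responsive elements when iron is scarce. Bound in a 5′ untranslated region they block translation, as in both ferritin chains, and bound in the 3′ untranslated region of TFRC they protect the RNA from decay. HMOX1, haem oxygenase-1, frees iron from haem. RNA levels therefore cover only one layer of this control, since ferritin protein is set largely by translation.

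The iron-responsive elements are shown because the regulators act on RNA through such sequences. They were found in GENCODE release 44 transcripts on GRCh38 as a loop of 6 bases, CAGNGN with a last base other than G, on an upper stem of 5 pairs that follows an unpaired C, above at least 3 of 5 lower pairs, with G-T pairs allowed. Each element has 27 bases, and the loop is in capitals. In the 5′ untranslated region, in exon 1, the search found 1 element in FTH1 (chr11:61967575-61967601, minus strand), 1 in FTL (chr19:48965336-48965362, plus strand) and 1 in SLC40A1 (chr2:189580662-189580688, minus strand).
FTH1: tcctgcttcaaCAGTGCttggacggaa
FTL: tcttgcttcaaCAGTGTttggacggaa
SLC40A1: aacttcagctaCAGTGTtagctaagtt
The FTH1 and FTL elements share 25 of 27 bases. TFRC holds 5 elements in its 3′ untranslated region, in exon 19 of the canonical transcript (minus strand), over 593 bases. In transcript order, from a to e, they lie at chr3:196051030-196051056, chr3:196050980-196051006, chr3:196050576-196050602, chr3:196050511-196050537 and chr3:196050464-196050490.
TFRC a: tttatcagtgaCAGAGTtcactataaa
TFRC b: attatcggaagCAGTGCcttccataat
TFRC c: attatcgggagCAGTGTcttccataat
TFRC d: tgtatcggagaCAGTGAtctccatatg
TFRC e: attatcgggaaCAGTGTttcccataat
One further match by letters, in the 3′ untranslated region of STEAP3 (chr2:119263772-119263798), has the loop CAGAGC and is not known here as a bound element. The other 5 genes held no match to this pattern, which says only that these letters were not found in their annotated transcripts. The search also found none in EPAS1, PFN2 and HAO1, which were listed as having a known element or link to the regulatory proteins. A gene without a match, such as SLC11A2, may thus still hold an element.

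The values are the authors' normalised values, in a file named for CPM, although the 16 libraries summed to between 0.829 and 1.19 times 1000000. They are called normalised values below. The depth, estimated by taking the most frequent value above 0 in a library as 1 read, lay, in units of 1000000 reads, from 31.5 to 43.0 in NCI-H526, from 33.3 to 39.2 in NCI-H1048, from 12.0 to 14.05 in NCI-H929 and from 16.8 to 32.4 in MM1.S. All 10 plasma cell markers averaged at least 1 in the DMSO libraries of both myeloma lines, and 9 of 9 tuft cell markers in NCI-H526 and 7 of 9 in NCI-H1048, where TRPM5 and PTGS1 were below 1. Summed levels of the erythroid list, whose cells are the main iron consumers, reached at most 5.94 in any library and those of the macrophage list at most 3.79. The fibroblast list reached at most 10.5 in the other lines but summed to between 36.7 and 40.8 in the DMSO and between 21.7 and 26.1 in the AU-15330 libraries of NCI-H1048, where COL1A1 made up most of it (37.8 and 23.5). With AU-15330 the summed tuft cell markers moved from between 2863 and 2890 to between 1035 and 1056 in NCI-H526, and from between 1412 and 1505 to between 212 and 221 in NCI-H1048, although GFI1B stood at 86.9 in DMSO and 128 with AU-15330 in NCI-H526. The summed plasma cell markers moved from between 23482 and 23935 to between 12297 and 12967 in NCI-H929, and from between 9752 and 10249 to between 6342 and 6368 in MM1.S. JCHAIN held most of the sum in NCI-H929 (14981 in DMSO and 6597 with AU-15330), and XBP1 went the other way, from 2752 to 4314 in NCI-H929 and from 1037 to 2713 in MM1.S. The part of these shifts in the results below was not tested.

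In DMSO, a different ferritin chain was the highest of the 10 genes in the myeloma lines than in the lung cancer lines. Per kilobase of the canonical transcript (1203 bases for FTH1 and 871 for FTL), FTL was highest in NCI-H929 at 3580 ± 61.4 (SD, n = 2) and in MM1.S at 640.0 ± 18.2, while FTH1 was highest in NCI-H526 at 865 ± 21.1 and in NCI-H1048 at 874 ± 11.5. FTH1 per kilobase was 167 ± 3.44 in NCI-H929 and 61.8 ± 1.02 in MM1.S. The lowest gene per kilobase was SLC40A1 in NCI-H526, NCI-H929 and MM1.S, and HMOX1 in NCI-H1048. Levels were tested among the 3 poly(A) lines with limma on log2(value + 0.5), with Benjamini-Hochberg adjustment over 14567 genes. Between NCI-H526 and NCI-H1048, 7 of the 10 genes differed, against 79.8% of all genes tested. Between NCI-H526 and NCI-H929 10 of 10 differed (86.1% of all genes), and between NCI-H1048 and NCI-H929 9 of 10 (85.6% of all genes). MM1.S was left out of these tests because its library preparation cannot be told apart from the line.

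For TFRC, the DMSO level was highest in NCI-H929 at 835 ± 23.1 (SD, n = 2), followed by NCI-H526 at 706 ± 2.39 and NCI-H1048 at 254 ± 10.8, and each step of this order passed the test (log2 difference of NCI-H526 from NCI-H929 -0.24 ± 0.04 (SE), limma adjusted p = 0.0011). The first of these steps depended on the scaling, since quantile normalization turned it to 0.20 and total-count scaling left it short of the test (-0.06). The DMSO level of MM1.S was 396 ± 9.75. For FTL the order was NCI-H929, NCI-H526 and NCI-H1048, with log2 differences of 2.59 and 0.77 between neighbours. FTH1 did not differ beyond its spread between NCI-H526 and NCI-H1048 (-0.01 ± 0.04, adjusted p = 0.75), although it passed under total-count scaling (-0.09), and it was lower in NCI-H929 than in NCI-H526 by a log2 difference of 2.37 ± 0.04. ACO1 fell in the order NCI-H526 (196 ± 0.972), NCI-H1048 (70.2 ± 2.72), NCI-H929 (49.5 ± 1.02), and IREB2 in the order NCI-H526 (225 ± 1.78), NCI-H1048 (155 ± 2.97), NCI-H929 (143 ± 7.54), where the last step was small (0.12 ± 0.05, adjusted p = 0.046). That step was lost under median-ratio rescaling (0.022), with no filter, with no variance trend, without either DMSO library of NCI-H526 (0.12) or NCI-H1048 (0.13 and 0.096) and without the first DMSO library of NCI-H929 (0.062). SLC11A2 followed the same order, at 84.8 ± 0.0917, 53.5 ± 0.912 and 43.4 ± 0.0861. HMOX1 was highest in NCI-H929 at 16.9 ± 1.58 and did not differ beyond its spread between NCI-H526 (3.94 ± 0.366) and NCI-H1048 (4.38 ± 0.134; adjusted p = 0.33). SLC40A1 ran the other way, at 17.8 ± 1.14 in NCI-H1048, 6.78 ± 0.292 in NCI-H526 and 0.72 ± 0.639 in NCI-H929, where the 2 DMSO libraries held 1.17 and 0.27. Its difference of NCI-H526 from NCI-H1048 (-1.33) lost its call without the first DMSO library of NCI-H526 (-1.29) or either DMSO library of NCI-H1048 (-1.39 and -1.27). STEAP3 did not differ beyond its spread between NCI-H526 (18.1 ± 0.0893) and NCI-H1048 (20.5 ± 1.399; -0.17, adjusted p = 0.089), which passed under total-count scaling (-0.25). NCOA4 did not differ beyond its spread between NCI-H1048 (141 ± 13.02) and NCI-H929 (148 ± 8.71; -0.07, adjusted p = 0.37), where quantile normalization gave 0.12 and total-count scaling 0.19, the latter past the test.

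**Figure D1:**
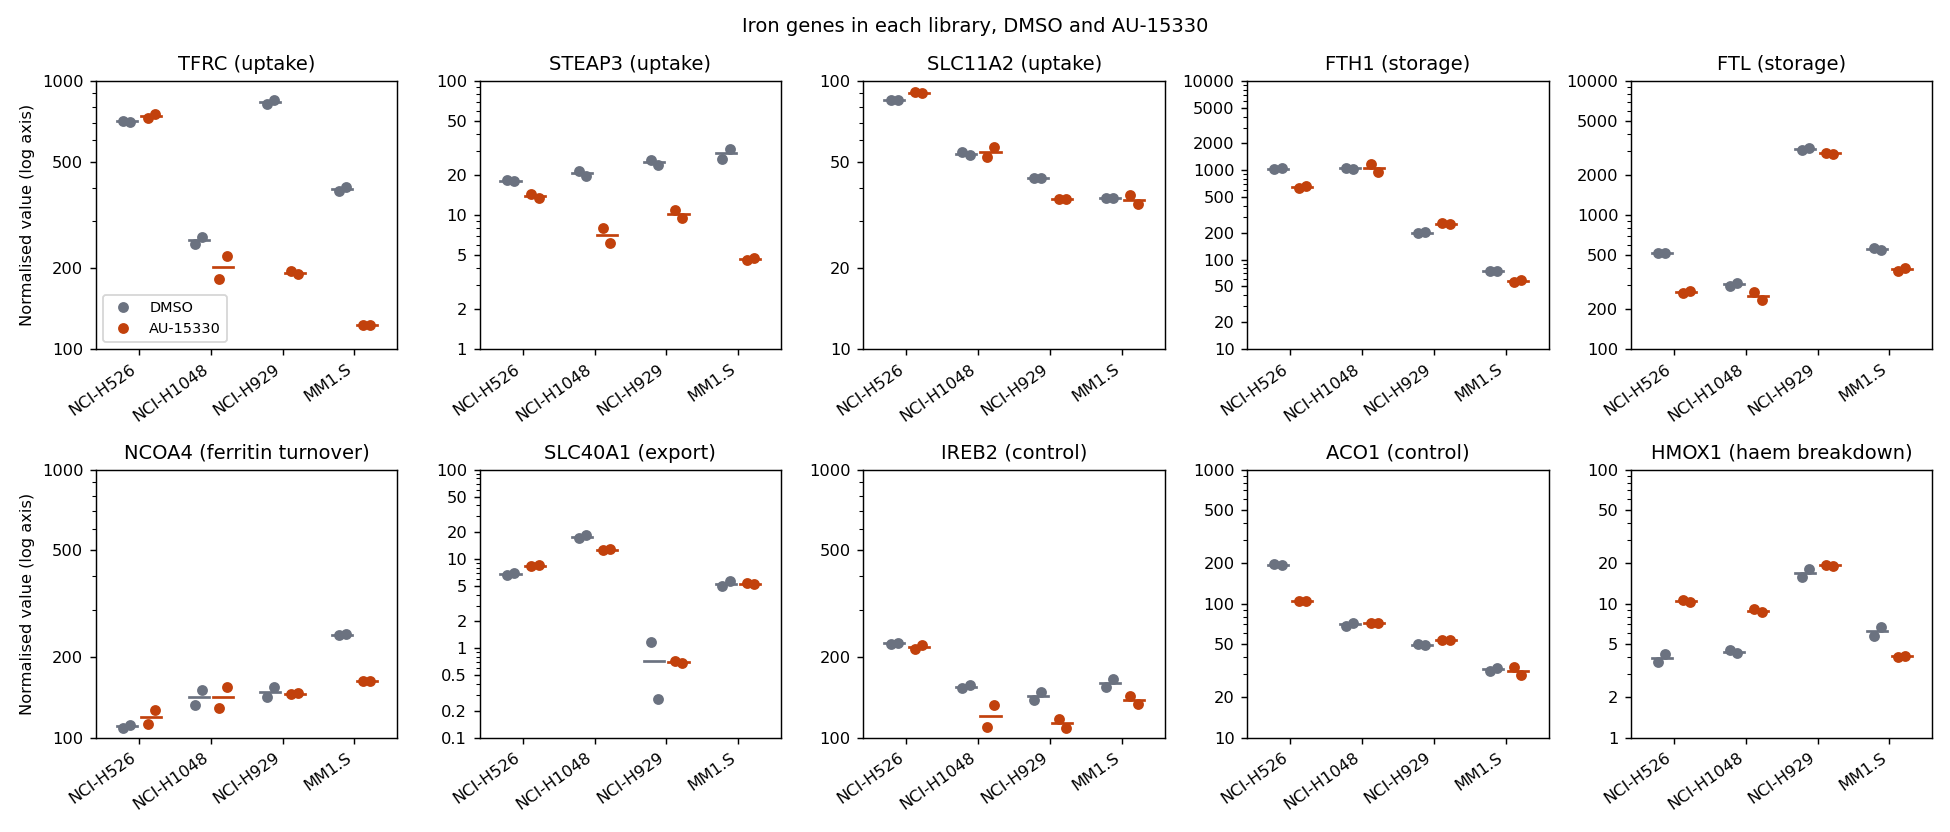
Normalised value of each of the 10 genes (vertical log axes, scaled separately for each gene) in every library, by cell line (horizontal axis); grey points are DMSO, orange points AU-15330, and the short lines are the means of 2 libraries. TFRC separated by arm in NCI-H929 (819 and 851 against 195 and 190.0) and MM1.S, and STEAP3 was below its DMSO values in all 4 lines.

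AU-15330 changed 6 of the 10 genes in NCI-H526 in the limma test (Benjamini-Hochberg adjusted p under 0.05 over all genes with a mean of at least 1). Of these, 2 were higher and 4 lower, where 29% of the 13685 genes tested were higher and 29.8% lower. In NCI-H1048, 1 was higher and 5 lower, against 16.9% and 18.2% of 13691 genes. In NCI-H929, 9 genes passed the filter on low values, of which 1 was higher and 5 lower (38.4% and 37.6% of 13115 genes), and SLC40A1 was below it. In MM1.S, none was higher and 7 were lower, against 33.9% and 40.2% of 13838 genes. At an unadjusted p under 0.05, no gene was higher in MM1.S either. The median log2 fold change over the tested genes of the set was 0.01 in NCI-H526, -0.14 in NCI-H1048, -0.11 in NCI-H929 and -0.43 in MM1.S, beside -0.0008, 0.01, 0.04 and -0.03 for all genes tested. Total-count scaling, in place of the deposited scaling, moved the median of all genes up by 0.21 in NCI-H929 and by 0.23 in MM1.S, and the share of calls that were higher from 50.5% to 62.7% and from 45.7% to 60.3%. Changes in the myeloma lines are therefore relative to the deposited scaling. A bulk value does not tell less RNA in every cell from fewer cells that make it.

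TFRC fell in both myeloma lines. In NCI-H929 it measured 819 and 851 in the DMSO libraries and 195 and 190.0 in the AU-15330 libraries, a 4.32-fold lower level (log2 fold change -2.11 ± 0.04 (SE), limma adjusted p = 1.5e-14). In MM1.S it measured 390 and 403 in DMSO and 123 and 122 with AU-15330, 3.22-fold lower (-1.69 ± 0.05, adjusted p = 7.0e-10). In either line the arms were far apart compared with the distance within an arm. Of all genes tested, 2.09% fell further in NCI-H929 and 5.09% in MM1.S.

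The lung cancer lines did not share this change of TFRC. In NCI-H526, the DMSO libraries held 708 and 705 and the AU-15330 libraries 726 and 754 (0.07 ± 0.04, adjusted p = 0.22), a small upward shift that passed under quantile normalization (0.14), under total-count scaling (0.11) and without the first AU-15330 library (0.09). In NCI-H1048, the values were 247 and 262 in DMSO and 183 and 223 with AU-15330, 1.26-fold lower (-0.33 ± 0.10, adjusted p = 0.017). That call was lost without the first DMSO library (-0.38), the second DMSO library (-0.29) or the first AU-15330 library (-0.19), and under median-ratio rescaling (-0.32), with no filter or with no variance trend. The effect on TFRC was higher in the SCLC-P lines than in the myeloma lines by 1.77 ± 0.07 on the log2 scale (adjusted p = 4.3e-12), in a fit of all 16 libraries in which 76.1% of 11059 genes differed.

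STEAP3, the endosomal ferrireductase, was lower with AU-15330 in all 4 lines. In MM1.S it measured 26.2 and 31.3 in DMSO and 4.60 and 4.78 with AU-15330, 5.62-fold lower (-2.49 ± 0.11, adjusted p = 1.1e-08). In NCI-H1048 it measured 21.5 and 19.5 in DMSO and 7.995 and 6.16 with AU-15330, 2.78-fold lower (-1.48 ± 0.14, adjusted p = 7.4e-08). These were among the larger decreases of either line, with 1.58% of all genes falling further in each. In NCI-H929 the values went from 25.9 and 23.6 to 10.9 and 9.54, 2.36-fold lower (-1.24 ± 0.12, adjusted p = 4.4e-07). In NCI-H526 they went from 18.1 and 18.0 to 14.4 and 13.5, 1.29-fold lower (-0.36 ± 0.07, adjusted p = 0.0020). The arms did not overlap in any line.

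The effect on STEAP3 was also unequal within each cancer type. It was stronger in NCI-H1048 than in NCI-H526 by 1.11 ± 0.17 (adjusted p = 2.3e-04), where 26.2% of genes differed between the SCLC-P lines, and stronger in MM1.S than in NCI-H929 by 1.25 ± 0.17 (adjusted p = 2.5e-05), where 48.1% of genes differed between the myeloma lines. SLC11A2, the endosomal iron transporter, changed little. It was called only in NCI-H929, at 43.3 and 43.5 in DMSO and 36.4 and 36.3 with AU-15330 (-0.25 ± 0.07, adjusted p = 0.0054), a call that was lost under quantile normalization (-0.14) and total-count scaling (-0.03). In NCI-H526 it moved from 84.9 and 84.7 to 90.8 and 90.2 (0.09 ± 0.04, adjusted p = 0.070), and this passed without the second AU-15330 library (0.10) and under the 3 other scalings (0.10 to 0.14). The estimates were 0.02 ± 0.10 in NCI-H1048 and -0.02 ± 0.07 in MM1.S. In MM1.S the estimate turned to 0.21 under total-count scaling, past the test.

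**Figure D2:**
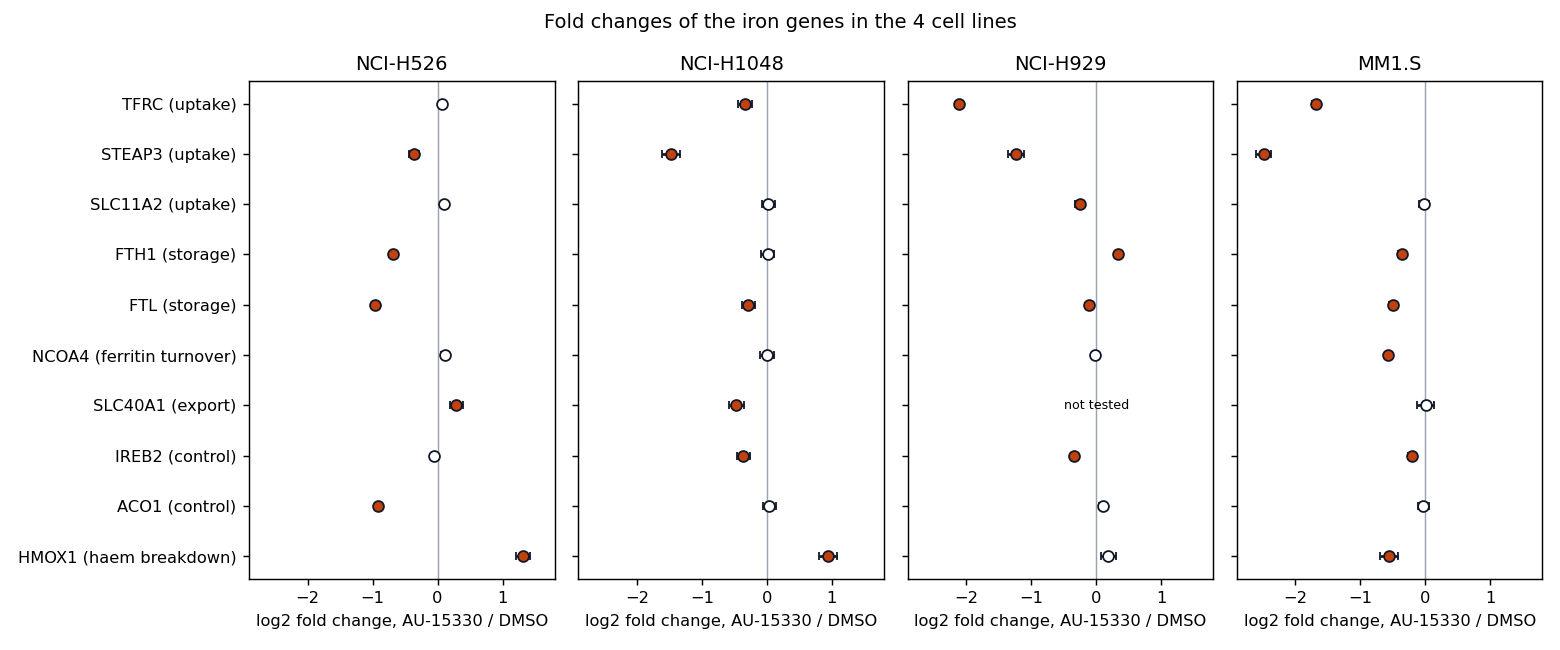
Log2 fold change of AU-15330 over DMSO (horizontal axis, bars are the SE from limma) for the 10 genes in each cell line; filled points passed the adjusted p threshold of 0.05 and open points did not. TFRC lay at -2.11 in NCI-H929 and -1.69 in MM1.S but at 0.07 in NCI-H526, and HMOX1 lay at 1.31 in NCI-H526 and -0.56 in MM1.S.

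Both ferritin chains were lower in NCI-H526. FTL, the light chain, measured 518 and 519 in DMSO and 262 and 269.7 with AU-15330, 1.95-fold lower (-0.96 ± 0.04, adjusted p = 2.8e-08). FTH1, the heavy chain, measured 1023 and 1059 in DMSO and 634 and 659 with AU-15330, 1.61-fold lower (-0.69 ± 0.05, adjusted p = 9.8e-07). The DMSO libraries lay well above the AU-15330 libraries for each chain.

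In NCI-H1048 the heavy chain did not separate by arm. FTH1 measured 1061 and 1041 in DMSO and 1177 and 952 with AU-15330 (0.01 ± 0.11, adjusted p = 0.95). FTL measured 297 and 309 in DMSO and 267 and 231 with AU-15330 (-0.29 ± 0.10, adjusted p = 0.029). That call was lost without the first DMSO library (-0.31), the second DMSO library (-0.26) or the second AU-15330 library (-0.18). It was also lost under median-ratio rescaling (-0.28), with no filter and with no variance trend. The effect was lower in NCI-H526 than in NCI-H1048 by 0.70 ± 0.10 for FTH1 (adjusted p = 1.6e-04) and by 0.68 ± 0.09 for FTL (adjusted p = 5.2e-05).

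In NCI-H929 the chains moved in opposite directions under the deposited scaling. FTH1 measured 198 and 204 in DMSO and 257 and 249.9 with AU-15330, 1.26-fold higher (0.33 ± 0.04, adjusted p = 4.3e-06), and kept its direction under every scaling tried. FTL measured 3080 and 3156 in DMSO and 2895 and 2872 with AU-15330 (-0.11 ± 0.03, adjusted p = 0.0080). This turned to 0.19 under quantile normalization and 0.11 under total-count scaling, each past the test. The call was lost without either AU-15330 library (-0.12 and -0.11), with no variance trend and in 1 fit of all 16 libraries. The direction of FTL in NCI-H929 therefore depended on the scaling. In MM1.S both were lower, FTH1 from 73.5 and 75.3 to 56.6 and 59.4 (-0.36 ± 0.06, adjusted p = 3.5e-04) and FTL from 569 and 546 to 382 and 403 (-0.51 ± 0.05, adjusted p = 6.5e-06). The FTH1 call in MM1.S was lost under total-count scaling (-0.12).

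The ratio of light to heavy chain within a library does not depend on the scaling by library size. Per kilobase, it was 0.70 and 0.68 in the DMSO libraries of NCI-H526 and 0.57 and 0.57 with AU-15330. In NCI-H1048 it was 0.39 and 0.41 in DMSO and 0.31 and 0.34 with AU-15330. In NCI-H929 it was 21.5 and 21.4 in DMSO and 15.6 and 15.9 with AU-15330. In MM1.S it was 10.7 and 10.0 in DMSO and 9.31 and 9.37 with AU-15330. In each line both AU-15330 libraries lay below both DMSO libraries. The ratio was chosen after the values were seen and is given without a test. It assumes the canonical lengths for both genes, which set its level but not its change.

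**Figure D3:**
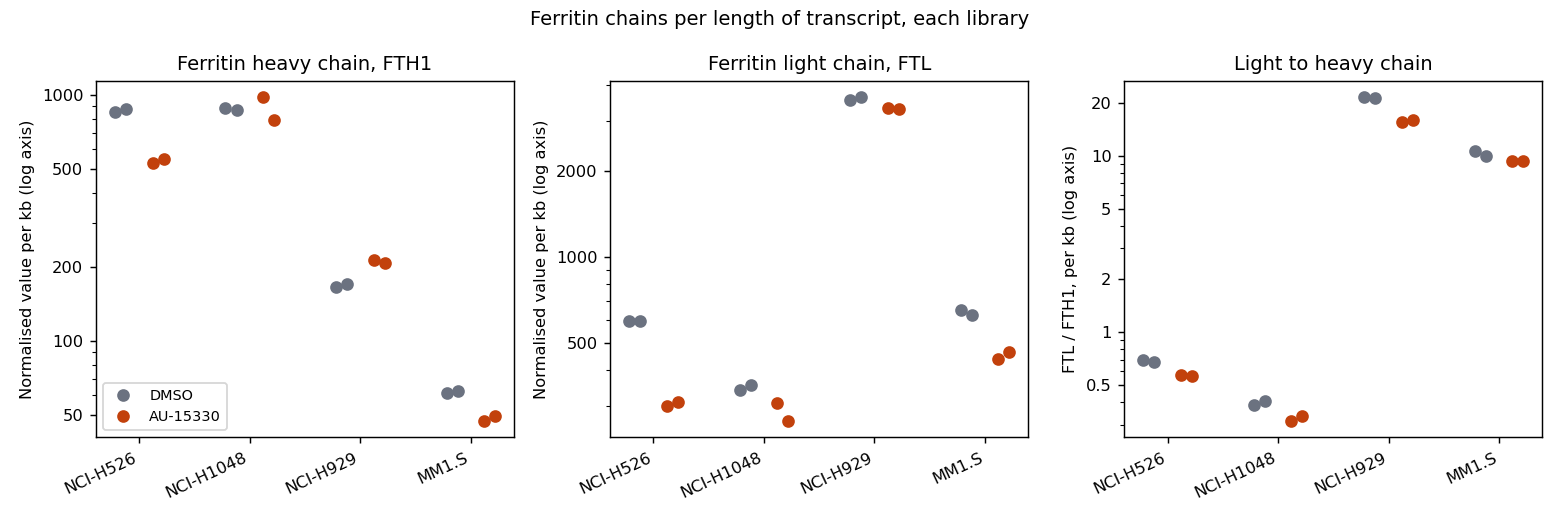
Ferritin heavy chain (FTH1, left) and light chain (FTL, middle) as normalised value per kilobase of canonical transcript, and the ratio of light to heavy chain (right), on log axes, in each library by cell line; grey points are DMSO and orange points AU-15330. The ratio was 21.5 and 21.4 in DMSO and 15.6 and 15.9 with AU-15330 in NCI-H929, and it was lower with AU-15330 in each of the 4 lines.

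Ferritin genes have many near-identical pseudogene copies, to which reads could be split. The table listed 25 copies of FTH1, 16 of them above 0 in some library, and 16 of FTL, 6 above 0. Their summed level was 0.0747% to 2.78% of the FTH1 total and 0.00315% to 0.181% of the FTL total over the groups. The highest share was in MM1.S, where the copies stood at 1.54% with DMSO and 2.78% with AU-15330. Adding the copies to each gene left every ferritin call and direction as it was.

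NCOA4, the receptor that takes ferritin to the lysosome, changed in MM1.S alone by the test in each line. There it measured 241 and 244 in DMSO and 163 and 163 with AU-15330, 1.49-fold lower (-0.57 ± 0.05, adjusted p = 1.7e-06). In NCI-H929 it measured 142 and 154 in DMSO and 146 and 146 with AU-15330 (-0.02 ± 0.05, adjusted p = 0.74), with 0.20 under both quantile normalization and total-count scaling, each past the test. The effect was lower in MM1.S than in NCI-H929 by 0.55 ± 0.12 (adjusted p = 0.0011). In NCI-H526 the values were 109 and 111 in DMSO and 112 and 127 with AU-15330 (0.12 ± 0.06, adjusted p = 0.10), which passed without the first AU-15330 library (0.21) and under quantile normalization (0.13) or total-count scaling (0.16). The estimate in NCI-H1048 was 0.00 ± 0.11.

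SLC40A1, the iron exporter, was low in all lines, and its calls in the lung cancer lines, higher in NCI-H526 and lower in NCI-H1048, were both lost in 1 fit of all 16 libraries (adjusted p = 0.36 and 0.13). In NCI-H526 it measured 6.57 and 6.98 in DMSO and 8.31 and 8.50 with AU-15330, 1.22-fold higher (0.29 ± 0.10, adjusted p = 0.026). In NCI-H1048 it measured 17.01 and 18.6 in DMSO and 12.5 and 12.9 with AU-15330, 1.38-fold lower (-0.47 ± 0.12, adjusted p = 0.0047). The call in NCI-H526 was lost without either DMSO library (0.25 and 0.33) or the second AU-15330 library (0.28) and with no filter, and that in NCI-H1048 without the second DMSO library (-0.41). The difference between the lines was not tested for this gene, because its mean was below the filter in NCI-H929. MM1.S held 4.98 and 5.61 in DMSO and 5.34 and 5.27 with AU-15330. In NCI-H929 the 4 libraries held between 0.27 and 1.17.

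The 2 iron regulatory proteins followed different patterns. ACO1, which is also the cytosolic aconitase, measured 197 and 195 in the DMSO libraries of NCI-H526 and 104 and 104 with AU-15330, 1.88-fold lower (-0.91 ± 0.04, adjusted p = 3.0e-08). In the other lines it was not called. NCI-H1048 held 68.3 and 72.1 in DMSO and 72.2 and 71.8 with AU-15330, NCI-H929 50.2 and 48.8 against 53.7 and 53.1, and MM1.S 31.6 and 33.2 against 33.9 and 29.4. In NCI-H929 the estimate of 0.11 ± 0.06 passed under quantile normalization (0.25) and total-count scaling (0.33). The effect in NCI-H526 was lower than in NCI-H1048 by 0.95 ± 0.09 (adjusted p = 3.3e-06).

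IREB2 was lower by a smaller amount in 3 lines. In NCI-H929 it measured 138 and 148 in DMSO and 117 and 109 with AU-15330 (-0.34 ± 0.05, adjusted p = 5.8e-05), and in NCI-H1048 153 and 157 in DMSO and 109 and 132 with AU-15330 (-0.36 ± 0.10, adjusted p = 0.0099). In MM1.S it measured 155 and 165 in DMSO and 143 and 133 with AU-15330 (-0.21 ± 0.06, adjusted p = 0.0087). The arms did not overlap in these lines. The call was lost in NCI-H929 under quantile normalization (-0.10) and total-count scaling (-0.11), and in NCI-H1048 without either DMSO library (-0.38 and -0.34), with no filter or with no variance trend. In MM1.S it was lost under quantile normalization (-0.04), with no variance trend and without the second DMSO or second AU-15330 library (-0.16 each), and it turned to 0.02 under total-count scaling. In NCI-H526 the values were 223 and 226 in DMSO and 214 and 221 with AU-15330 (-0.05 ± 0.04, adjusted p = 0.32), which passed without the second AU-15330 library (-0.07).

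HMOX1, haem oxygenase-1, was higher in both lung cancer lines. In NCI-H526 it measured 3.68 and 4.20 in DMSO and 10.7 and 10.3 with AU-15330, 2.48-fold higher (1.31 ± 0.11, adjusted p = 3.9e-06), and 0.833% of all genes rose further. In NCI-H1048 it measured 4.47 and 4.28 in DMSO and 9.04 and 8.68 with AU-15330, 1.92-fold higher (0.94 ± 0.15, adjusted p = 5.2e-05), and 1.00% of all genes rose further. These were low levels, and fold changes on the log2(value + 0.5) scale understate the change of a low gene.

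In the myeloma lines HMOX1 did not rise. NCI-H929 held 15.8 and 18.0 in DMSO and 19.3 and 19.2 with AU-15330 (0.19 ± 0.11, adjusted p = 0.15), which passed under total-count scaling (0.40). MM1.S held 5.75 and 6.69 in DMSO and 4.00 and 4.09 with AU-15330, 1.47-fold lower (-0.56 ± 0.14, adjusted p = 0.0036), a call lost without the second DMSO library (-0.46). The effect was higher in the SCLC-P lines than in the myeloma lines by 1.31 ± 0.12 (adjusted p = 3.8e-08) and higher in NCI-H929 than in MM1.S by 0.75 ± 0.16 (adjusted p = 0.0015). With AU-15330 the NCI-H526 level of 10.5 ± 0.241 stayed below the DMSO level of NCI-H929, 16.9 ± 1.58.

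Across the 16 libraries, after each line was centred on its own mean, TFRC ran with STEAP3 (Pearson r = 0.83) and IREB2 (r = 0.76), and FTH1 with FTL (r = 0.84) and ACO1 (r = 0.82). HMOX1 ran against ACO1 (r = -0.69) and FTL (r = -0.64), while TFRC and FTH1 were unrelated (r = -0.08). Libraries of one arm and line share a treatment and a scaling, so these are descriptions. Of 11058 other genes, those most like TFRC were DHX15 (r = 0.996), PITPNB (r = 0.996) and NOP56 (r = 0.995). DHX15 is an RNA helicase of splicing and ribosome assembly and NOP56 a protein of the nucleolar box C/D particles. Those most like FTH1 were GRN (r = 0.978), which encodes progranulin, ANKDD1A (r = 0.967) and TTC38 (r = 0.953). Those most like HMOX1 were FDX1 (r = 0.972), a mitochondrial ferredoxin, NFKB1 (r = 0.962) and POR (r = 0.942), the reductase that gives electrons to haem oxygenase.

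The promoters of TFRC and STEAP3 are shown because these were the 2 genes of the set with the largest decreases in each myeloma line. RefSeq windows of 300 bases (250 before and 50 after the start, GRCh38.p14) were held for 8 of the 10 genes and not used for FTH1 and HMOX1. Matches to 6 motifs on either strand are in capitals in the 250 bases before the start: the E-box CACGTG, the antioxidant response core TGACNNNGC, the hypoxia response core ACGTG, which is part of every E-box match, the AP-1 site TGANTCA, the octamer ATGCAAAT and the forkhead site TGTTTAC.
TFRC (chr3:196082091-196082340, minus strand): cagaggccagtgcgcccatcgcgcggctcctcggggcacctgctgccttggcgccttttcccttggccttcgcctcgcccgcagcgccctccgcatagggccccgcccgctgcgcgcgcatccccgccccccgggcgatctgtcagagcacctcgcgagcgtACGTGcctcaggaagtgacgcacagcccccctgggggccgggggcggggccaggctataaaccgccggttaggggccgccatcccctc
STEAP3 (chr2:119223584-119223833, plus strand): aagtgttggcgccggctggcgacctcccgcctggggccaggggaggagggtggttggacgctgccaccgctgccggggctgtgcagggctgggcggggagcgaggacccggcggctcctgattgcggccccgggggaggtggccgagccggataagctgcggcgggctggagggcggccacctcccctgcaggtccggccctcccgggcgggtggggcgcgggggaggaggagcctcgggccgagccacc
TFRC holds 1 hypoxia response core, starting 88 bases before the start, and STEAP3 none of the 6 motifs. FTL also holds a hypoxia response core, on the minus strand starting 11 bases before the start, and 21.4% of 35116 promoter windows hold one. An AP-1 site lies in 1 window each of NCOA4 and SLC11A2 (7.71% of all windows), and an antioxidant response core in the second NCOA4 window (13.3%). None of the 13 windows of these genes holds an E-box, an octamer or a forkhead site, which are found in 7.26%, 1.77% and 3.42% of all windows. Matching letters are not evidence of binding.

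Around these 10 genes, 10 lists of other iron, haem and redox genes were examined. For 18 other genes of the transferrin cycle and iron uptake, 4 of 13 tested were higher and 2 lower in NCI-H526, 3 and 3 of 15 in NCI-H1048, 4 and 5 of 14 in NCI-H929 and 6 and 5 of 15 in MM1.S. Over all genes tested, the shares higher and lower were 29% and 29.8% in NCI-H526, 16.9% and 18.2% in NCI-H1048, 38.4% and 37.6% in NCI-H929 and 33.9% and 40.2% in MM1.S. SLC39A14, a transporter that takes up iron not bound to transferrin, was lower in the myeloma lines, as TFRC was. It went from 278 ± 5.8 (SD, n = 2) to 131 ± 4.8 in NCI-H929 (-1.08 ± 0.04, adjusted p = 3.4e-11) and from 86.1 ± 4.3 to 25.5 ± 0.62 in MM1.S (-1.74 ± 0.07, adjusted p = 3.9e-09). SLC39A14 was also called lower in NCI-H526, by a smaller amount (log2 fold change -0.23 ± 0.05), where TFRC was not lower. In NCI-H1048 it was not called (-0.16 ± 0.10). MCOLN1, the lysosomal channel through which iron leaves endosomes and lysosomes, was higher in MM1.S (1.04 ± 0.07) and NCI-H1048 (0.74 ± 0.13).

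In ferritin turnover and control of the regulatory proteins, 13 of 13 genes were tested in every line. Of these, 5 were higher and 3 lower in NCI-H526 (29% and 29.8% of all genes), 2 and 1 in NCI-H1048 (16.9% and 18.2%), 6 and 6 in NCI-H929 (38.4% and 37.6%) and 6 and 4 in MM1.S (33.9% and 40.2%). TAX1BP1, an autophagy receptor that works with NCOA4, was higher in NCI-H526 (172 ± 0.56 to 259.6 ± 18.5, log2 fold change 0.59 ± 0.05), NCI-H929 (0.38 ± 0.04) and MM1.S (0.50 ± 0.06). GABARAPL1, an autophagosome protein, was higher in NCI-H526 (0.64 ± 0.10), NCI-H929 (1.13 ± 0.08) and MM1.S (1.39 ± 0.08), and USP7, a deubiquitinase, was lower in NCI-H929 and MM1.S (-0.76 ± 0.04 and -0.93 ± 0.05). Of the 13 genes of export, chaperones and the hepcidin axis, only 4 to 6 were tested in a line, too few to set their counts against those of all genes. BMP6, the hepcidin inducer, was higher in NCI-H929 (0.70 ± 0.07) and MM1.S (1.04 ± 0.06) and lower in NCI-H1048, at levels of 3.06 ± 0.161 in DMSO and 0.77 ± 0.080 with AU-15330. PROM2, which takes part in ferritin export, was lower in NCI-H526 (-1.28 ± 0.07) and NCI-H1048 (-2.08 ± 0.22), and BMP2 was lower in NCI-H1048 (28.9 ± 0.542 to 10.1 ± 1.60). PCBP2, an iron chaperone, was lower in both myeloma lines (-0.23 and -0.17) but turned to 0.16 and 0.12 under quantile normalization, and total-count scaling gave -0.012 and 0.063. The MM1.S call was also lost without the second AU-15330 library (-0.16).

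In haem synthesis and transport, 5 of 14 tested genes were higher and 3 lower in NCI-H526 (29% and 29.8% of all genes) and 4 and 1 of 16 in NCI-H1048 (16.9% and 18.2%). In NCI-H929 7 were higher and 8 lower of 15 (38.4% and 37.6% of all genes), and in MM1.S 4 and 9 of 15 (33.9% and 40.2%). Their median log2 fold change was 0.11, 0.12, -0.38 and -0.24 in the same order of lines, beside the medians of all genes given above. PGRMC1 was lower in MM1.S (-1.49) and NCI-H526 (-0.37) and higher in NCI-H1048 (0.49), and ABCB6 was lower in MM1.S (-1.27). PPOX, the enzyme before the last step of haem synthesis, was higher in NCI-H929 (41.6 ± 1.3 to 138 ± 2.2, log2 fold change 1.71 ± 0.06) and MM1.S (16.4 ± 0.16 to 48.2 ± 1.4, 1.53 ± 0.08), and CPOX, the step before it, was higher in NCI-H929 (1.19 ± 0.04) and NCI-H526 (0.40 ± 0.07) and lower in MM1.S (-0.35 ± 0.08). Of the 4 other haem breakdown genes, 2 were higher and 0 lower in both lung cancer lines, 0 and 1 in NCI-H929 and 1 and 2 in MM1.S. These are too few to set against all genes. POR was higher in NCI-H526 (0.58 ± 0.05) and NCI-H1048 (0.43 ± 0.10), the lines in which HMOX1 rose, and the call in NCI-H1048 was lost without the second DMSO library (0.39). HMOX2, the constitutive haem oxygenase, was lower in NCI-H929 (52.7 ± 0.59 to 27.8 ± 1.1, -0.91 ± 0.07) and MM1.S (33.8 ± 1.6 to 16.7 ± 1.1, -0.998 ± 0.086). BLVRA, a biliverdin reductase, was lower in MM1.S (54.3 ± 2.3 to 7.60 ± 0.55, -2.76 ± 0.09). BLVRB, the other biliverdin reductase of the list, went the other way in MM1.S (1.18). It was also higher in NCI-H1048 (0.29), a call lost in 3 of the fits that left out 1 library.

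Among 30 genes of mitochondrial iron import and iron-sulfur cluster assembly, all 30 were tested in each line. In NCI-H526 7 were higher and 3 lower (29% and 29.8% of all genes), in NCI-H1048 7 and 1 (16.9% and 18.2%), in NCI-H929 8 and 18 (38.4% and 37.6%), and in MM1.S 7 and 16 (33.9% and 40.2%). Their median log2 fold change was 0.07, 0.05, -0.41 and -0.33, beside the medians of all genes given above. HSPA9, the chaperone of cluster transfer, was lower in NCI-H929 (777 ± 17 to 327 ± 3.0, -1.25 ± 0.04) and MM1.S (396 ± 10.2 to 179 ± 7.04, -1.14 ± 0.05). ISCU, the assembly scaffold, was higher in NCI-H929 (1.27 ± 0.05), and FDX1 was higher in NCI-H526 (0.78 ± 0.05) and NCI-H1048 (0.77 ± 0.11). Of 7 other transcripts with a known link to the regulatory proteins, 4 or 5 were tested in a line, with 1 higher and 1 lower in NCI-H526 and in NCI-H1048, 4 and 1 in NCI-H929 and 1 and 3 in MM1.S, too few to set against all genes. PFN2, profilin-2, was higher in NCI-H929 (0.96 ± 0.09) and MM1.S (0.92 ± 0.09) and lower in NCI-H526 (-0.14 ± 0.04), a call lost without either DMSO library of that line (-0.15 and -0.12).

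**Figure D4:**
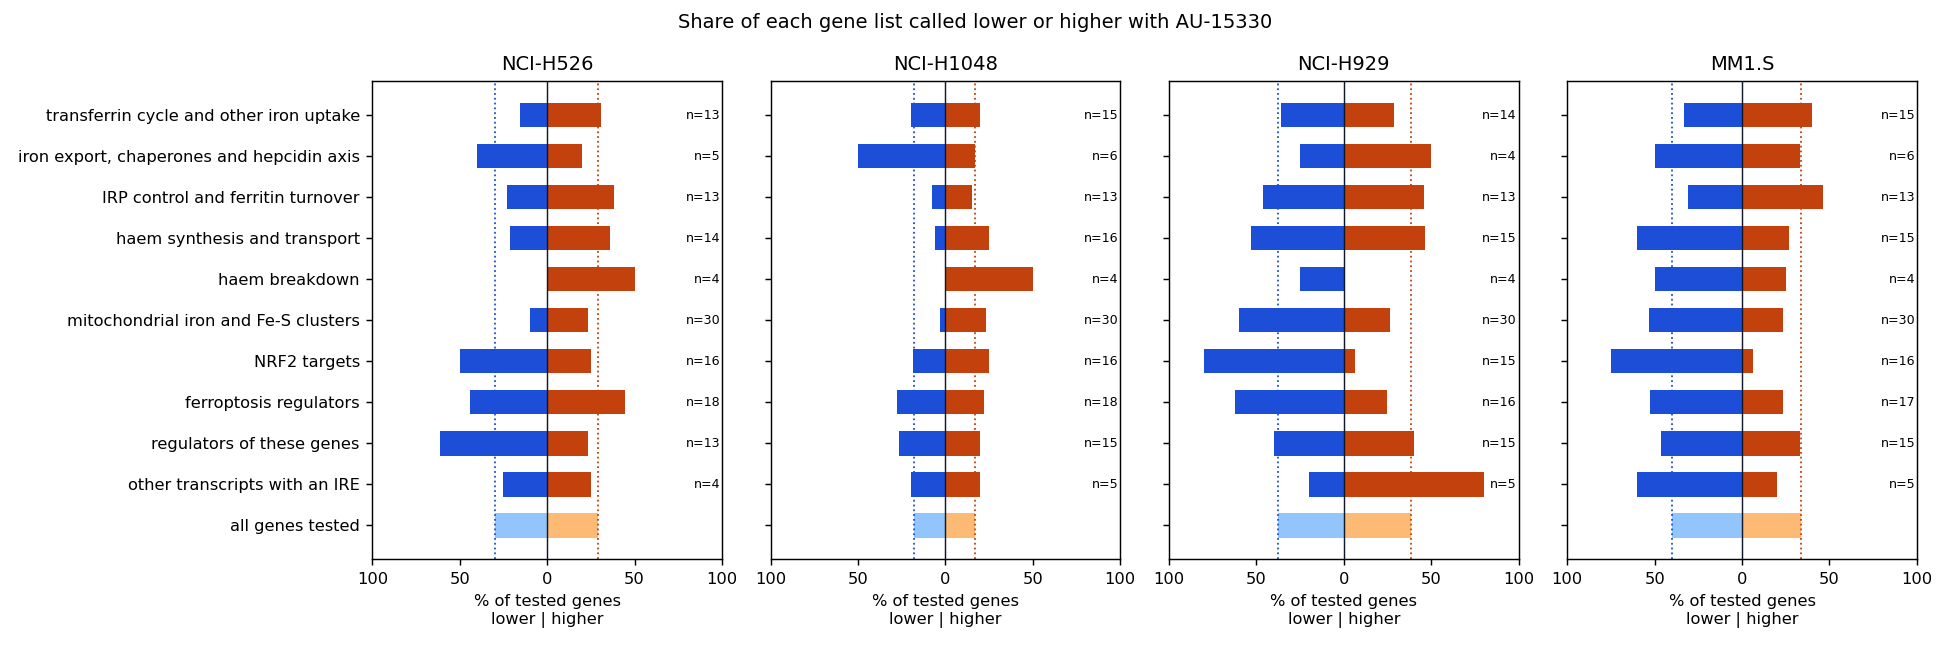
Percent of the tested genes of each list that were called higher (orange, to the right) or lower (blue, to the left) with AU-15330 in each cell line, with the number tested beside each bar; the pale bars and dotted lines give the same percent over all genes. In both myeloma lines the bars to the left for NRF2 targets, iron-sulfur genes, ferroptosis regulators and haem synthesis reach past the dotted line (37.6% in NCI-H929 and 40.2% in MM1.S). Haem synthesis in NCI-H929 also reaches past the line to the right (7 higher and 8 lower of 15, beside 38.4% of all genes higher). The regulators lie near the lines on both sides in NCI-H929 (6 higher and 6 lower of 15).

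Regulators with a known role at these genes, mostly transcription factors, were also examined. Of 16, 13 were tested in NCI-H526, of which 3 were higher and 8 lower (29% and 29.8% of all genes). In each of the other lines 15 were tested, of which 3 were higher and 4 lower in NCI-H1048 (16.9% and 18.2%), 6 and 6 in NCI-H929 (38.4% and 37.6%) and 5 and 7 in MM1.S (33.9% and 40.2%). MYC went from 308 ± 12 (SD, n = 2) to 38.8 ± 0.84 in NCI-H929 (-2.97 ± 0.05, adjusted p = 8.6e-15), from 529.7 ± 3.5 to 15.1 ± 0.35 in MM1.S (-5.09 ± 0.06, adjusted p = 4.0e-12) and from 183 ± 8.6 to 38.8 ± 3.5 in NCI-H1048 (-2.22 ± 0.10, adjusted p = 2.5e-12), and was below the filter in NCI-H526. MYCN in NCI-H526 was at 1639.8 ± 25 in DMSO and 1257 ± 36 with AU-15330 (-0.38 ± 0.05, adjusted p = 1.4e-04). NFE2L2 (NRF2), an activator of ferritin and HMOX1, moved by 0.11 ± 0.04 in NCI-H526 (adjusted p = 0.044) and 0.55 ± 0.06 in MM1.S, and was not called in NCI-H1048 (0.17 ± 0.10) or NCI-H929 (-0.09 ± 0.06). Its call in NCI-H526 was lost without either DMSO library (0.11 and 0.12) or the second AU-15330 library (0.068). BACH1, a repressor of HMOX1 and ferritin, was lower in NCI-H526 (-0.19 ± 0.04), higher in NCI-H929 (0.48 ± 0.06) and not called in NCI-H1048 (-0.16 ± 0.12) or MM1.S (-0.04 ± 0.07), and its call in NCI-H526 was lost without the first DMSO library (-0.17). HIF1A, an activator of TFRC, was lower in all 4 lines (log2 fold changes -0.17, -0.36, -0.52 and -0.38, in the order NCI-H526, NCI-H1048, NCI-H929 and MM1.S), while its partner ARNT was higher in all 4 (0.54, 0.28, 0.76 and 1.26). The ARNT call in NCI-H1048 was lost without either DMSO library (0.28 and 0.27) or the second AU-15330 library (0.20) and under median-ratio rescaling (0.29). The HIF1A call was lost without the second DMSO library in NCI-H526 (-0.13) and in NCI-H1048 (-0.32), and under total-count scaling in MM1.S (-0.14). The part of any factor in the changes of the 10 genes was not tested.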

How the data were processed

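RNA-seq of 16 libraries was used. Per the study's methods and the submitters' processing notes, the authors quantified paired-end reads against GRCh38 (hg38) with kallisto, and edgeR and limma are named. Which annotation was used, and how transcripts were combined per gene, was not given in the sources used here. As a unit, the deposited values were taken to be a signal that the authors scaled by normalised library sizes. This is an inference from library totals of 0.829 to 1.19 times 1000000. Of values up to 20 times a library's most frequent value above 0, which was read as 1 count, 74.9% to 80.3% were whole multiples of it within 0.1. Read counts could thus not be rebuilt and count models were not run. The depths in the report are that estimate, and low genes carry more counting error. No per-sample column was left unused, and 35444 of 35606 gene identifiers matched GENCODE release 44.

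Each line was fitted with limma-trend (limma 3.58.1, R 4.3.3, two-sided) on log2(value + 0.5) for genes with a mean of at least 1, with Benjamini-Hochberg adjustment at 0.05. Differences of effects came from 1 fit of 16 libraries and DMSO levels from the 6 DMSO libraries of the poly(A) lines. The fits were tested on simulated data. Nothing in the labels says that the 2 libraries of a group came from separate cultures, and the p-values reflect only how far these libraries spread, which may be technical. AU-15330 acts on protein, so the RNA of its targets does not check the labels.

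The members, lists and tests were chosen with earlier results of these data known. All 10 members are named in every line. Each list names up to 3 genes per line with the smallest adjusted p among those called with a mean of at least 5, from which the text takes a selection, the regulator list may name all tested genes, and likeness was ranked for TFRC, FTH1 and HMOX1. Values of a named list gene in lines where the rule did not name it were added after they were seen. Some list genes that the rule names are not reported here. Alternatives were pseudocounts of 0.1 and 1, a filter at 5 or none, median-ratio, quantile and total-count scaling, no variance trend, a minimum change of 1.5-fold, 1 fit of all libraries, a replicate block and leaving out each library. Adding ferritin pseudogene copies and a crossed block were chosen after seeing the data.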

Additional observations from a re-analysis of the deposited data

Results flagged for a closer look

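The effects of AU-15330 on these genes were compared between lines in 1 limma fit of all 16 libraries, and 21 of the 27 differences tested passed an adjusted p of 0.05 over 11059 genes. SLC40A1 was not tested. All values are differences of log2 fold changes.

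Between the SCLC-P lines (NCI-H526 minus NCI-H1048) the effect differed for 6 of 9 genes, where 26.2% of all genes did. The effect on STEAP3 was 1.11 higher in NCI-H526, that on TFRC 0.40 higher and that on IREB2 0.32 higher. For FTH1 the difference was -0.70, for FTL -0.68 and for ACO1 -0.95. The IREB2 difference (adjusted p = 0.043) was lost without any single NCI-H526 library, without either DMSO library or the first AU-15330 library of NCI-H1048, and without either DMSO library of MM1.S (0.18 to 0.34). The IREB2 difference was also lost with no filter and with no variance trend. The difference for HMOX1, 0.37, missed the threshold (adjusted p = 0.11) but passed with no variance trend (adjusted p = 0.043).

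Between the myeloma lines (NCI-H929 minus MM1.S) 7 of 9 differed, where 48.1% of all genes did. STEAP3 differed by 1.25, HMOX1 by 0.75, FTH1 by 0.69, NCOA4 by 0.55 and FTL by 0.39. TFRC differed by -0.43 and SLC11A2 by -0.23. The TFRC difference missed the threshold under quantile normalization (-0.12). The SLC11A2 difference (adjusted p = 0.037) was lost without either DMSO library of NCI-H526, any single NCI-H929 library, or either DMSO library or the first AU-15330 library of MM1.S (-0.18 to -0.24). For ACO1 the difference of 0.14 passed without the first AU-15330 library of MM1.S (0.24).

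Between the cancer types (mean of the SCLC-P lines minus mean of the myeloma lines) 8 of 9 differed, where 76.1% of all genes did. TFRC differed by 1.77, HMOX1 by 1.31, STEAP3 by 0.94, NCOA4 by 0.35 and SLC11A2 by 0.19, while FTH1 differed by -0.33, FTL by -0.31 and ACO1 by -0.47. The NCOA4 difference was lost under quantile normalization (0.17) and total-count scaling (0.14), and that of SLC11A2 fell short under the first (0.07) and turned to -0.01 under the second. Each cancer type is a mean of 2 lines that themselves differed, and 1 of the myeloma lines had another library preparation.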

How the results depend on the processing

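Of 712 values of called members under alternatives that kept every library, 657 kept their direction and call, 50 lost the call and 5 reversed. Leaving out 1 library kept 547 of 592 and reversed 0. Some of these values come from fits where the library left out had no part in the comparison, so the estimate could not move. An example is a library of NCI-H526 for the difference between the myeloma lines. The pooled count therefore does not describe the calls within each line. The cause of each change was not tested, except that the minimum-change test asks for more by construction. With no filter, 3 members were called in NCI-H1048, 1109 genes were higher there and 6063 genes were lower in the difference between cancer types. Without the variance trend, 3 members were called in NCI-H1048. A minimum change of 1.5-fold called 3 members in NCI-H526 (300.0 genes higher, 896 lower), 1 in NCI-H1048 (91 higher, 429 lower), 2 in NCI-H929 (2202 higher, 2229 lower) and 2 in MM1.S (1704 higher, 2538 lower).

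Median-ratio rescaling reversed SLC40A1 in MM1.S (-0.0023). Quantile normalization reversed FTH1 in NCI-H1048 (-0.073), FTL (0.19), NCOA4 (0.20) and PCBP2 (0.16) in NCI-H929, and SLC11A2 (0.13), SLC40A1 (-0.028), ACO1 (0.10) and PCBP2 (0.12) in MM1.S. It also reversed the difference between cancer types for IREB2 (-0.13), and the DMSO differences of HMOX1 between NCI-H526 and NCI-H1048 (0.13), TFRC between NCI-H526 and NCI-H929 (0.20) and NCOA4 between NCI-H1048 and NCI-H929 (0.12). Total-count scaling reversed NCOA4 in NCI-H1048 (-0.0051), FTL (0.11) and NCOA4 (0.20) in NCI-H929, and SLC11A2 (0.21), IREB2 (0.023), ACO1 (0.20) and PCBP2 (0.063) in MM1.S. It reversed the difference between cancer types for SLC11A2 (-0.014) and IREB2 (-0.14) and the DMSO difference of NCOA4 between NCI-H1048 and NCI-H929 (0.19).

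Leaving out each library in turn moved the calls in NCI-H1048 to between 2 and 5 members, 931 and 3219 genes higher and 1317 and 3284 lower, and the genes lower in the difference between the SCLC-P lines to between 956 and 1816. Estimates crossed 0 in NCI-H1048 for NCOA4 (-0.12 to 0.13), ACO1 (-0.0016 to 0.077), FTH1 (-0.14 to 0.16) and SLC11A2 (-0.034 to 0.078), in NCI-H929 for NCOA4 (-0.079 to 0.041), and in MM1.S for SLC40A1 (-0.075 to 0.084), SLC11A2 (-0.076 to 0.036) and ACO1 (-0.14 to 0.065). They also did for NCOA4 between the SCLC-P lines (-0.012 to 0.24), for FTH1 in DMSO between NCI-H526 and NCI-H1048 (-0.039 to 0.011) and for NCOA4 in DMSO between NCI-H1048 and NCI-H929 (-0.16 to 0.025). A lone library was assumed to vary like the others of its fit.

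The replicate numbers were not shown to pair the libraries, since same-numbered libraries deviated with correlations of 0.012, 0.22, -0.011 and -0.14 in NCI-H526, NCI-H1048, NCI-H929 and MM1.S. With the replicate block, 7 members were called in NCI-H526 (NCOA4 added), 6 in NCI-H1048, 6 in NCI-H929 and 7 in MM1.S. Over all genes, the block called 4291 higher and 4311 lower of 13685 in NCI-H526, and 2931 and 2999 of 13691 in NCI-H1048. In NCI-H929 it called 5047 and 4947 of 13115, and in MM1.S 4546 and 5423 of 13838. The differences of IREB2 between the SCLC-P lines and of SLC11A2 between the myeloma lines were lost with the block. A crossed block in MM1.S called 7 members, with 4814 genes higher and 5721 lower.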

Other observations

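NRF2 target genes outside the set of 10, mostly redox and pentose phosphate enzymes, were called lower in the myeloma lines for 12 of 15 tested in NCI-H929 and 12 of 16 in MM1.S, with 1 higher in each, beside 37.6% and 40.2% of all genes lower. Their median log2 fold change was -0.72 in NCI-H929 and -0.81 in MM1.S. PRDX1, a peroxiredoxin, was lower in NCI-H929 (-1.52, limma adjusted p = 6.8e-13) and MM1.S (-1.67, adjusted p = 1.3e-09). In NCI-H526, 4 of 16 were higher and 8 lower (29% and 29.8% of all genes; median -0.09), and in NCI-H1048 4 of 16 were higher and 3 lower (16.9% and 18.2% of all genes; median 0.02). PGD, an enzyme of the pentose phosphate pathway, was lower in NCI-H526 (-0.94), NCI-H929 (-1.17) and MM1.S (-1.93). The difference between the lines was not tested for the list.

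Of the ferroptosis regulators, 8 of 18 tested were higher and 8 lower in NCI-H526 (29% and 29.8% of all genes), 4 and 5 of 18 in NCI-H1048 (16.9% and 18.2%), 4 and 10 of 16 in NCI-H929 (38.4% and 37.6%) and 4 and 9 of 17 in MM1.S (33.9% and 40.2%). ALOX5, a lipoxygenase, was lower in NCI-H1048 (-2.41, adjusted p = 1.2e-12) and NCI-H526 (-1.15), and PTGS2, which encodes cyclooxygenase-2, was higher in NCI-H526 (1.96, adjusted p = 3.5e-07), NCI-H1048 (1.46) and MM1.S (2.04). ACSL4, which activates polyunsaturated fatty acids, was lower in NCI-H929 (-1.32), MM1.S (-0.97) and NCI-H1048 (-0.74), and SAT1, a polyamine acetyltransferase, was higher in MM1.S (1.49) and NCI-H929 (0.87) and lower in NCI-H526 (-0.41).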
